A study of Mus musculus with 9 samples.

Results

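The translation initiation and elongation factor genes are the Eif and Eef genes whose products start protein synthesis at a start codon and then move the ribosome along the message. They were taken by name from the deposited count table as the rows beginning with Eif1 to Eif6 or with Eef1 or Eef2, without Eif2ak3, Eif2s3y and rows named as pseudogenes. This gave 63 genes of 47593 rows, and 60 of them passed the filter on low counts. The names make up the known complexes: 8 genes of start codon selection and subunit joining, 10 of eIF2, eIF2B and eIF2D, 3 eIF2 kinases, 14 of eIF3, 12 of the eIF4 cap complex, 4 of eIF4E-binding proteins, 2 of eIF5A, 6 of eEF1, 2 for eEF2 and its kinase, and 1 methyltransferase of eEF2. The remaining name, Eif2c5, is an older symbol of the Argonaute family and had 1 count in all libraries together.

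Initiation begins when eIF2 brings the initiator tRNA to the small ribosomal subunit, which eIF3, eIF1 and eIF1A hold open for scanning. The eIF4 proteins bind the cap of the message, unwind its leader and recruit that subunit. Once the start codon is found, eIF5 and eIF5B release eIF2 and join the large subunit, and eEF1A and eEF2 then carry out each step of elongation. Cells control this pathway by phosphorylation of eIF2, which slows initiation, and by the eIF4E-binding proteins, which take the cap-binding protein away from the eIF4 complex. Cerebellar granule neuron progenitors, from which Hedgehog-driven medulloblastoma arises, are dividing cells with a high demand for protein synthesis.

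RNA was sequenced from 9 whole, flash-frozen medulloblastomas of C57BL/6J mice. All carried an Atoh1-cre transgene, B6.Cg-Tg(Atoh1-cre)1Bfri/J, which drives Cre in granule neuron progenitors and their kin, and the GT(ROSA)26Sortm1(Smo/EYFP)Amc/J allele, from which Cre releases SmoM2, a constitutively active Smoothened. By label 3 tumours were Cdk6+/+ and 6 were Cdk6-/-, and the study asked how loss of Cdk6, a cyclin D dependent kinase, alters such tumours. No source used here gives ages, treatment, the deleted Cdk6 exon or the cells in which it was deleted, and the p-values below measure the spread between these tumours.

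In units of 1e6 counts, library totals were 39.4 to 56.8 in Cdk6+/+ and 21.4 to 34.5 in Cdk6-/-. Several facts of these libraries touch every result below. Cdk6 was at 551 to 562 CPM (counts per 1e6 counts of the scaled library) in Cdk6+/+ and at 2.17 to 562 CPM in Cdk6-/-, so its counts did not separate the groups and the groups are called by their labels. The summed level of 6 progenitor markers was 2182 to 2623 CPM in Cdk6+/+ and 1730 to 3358 CPM in Cdk6-/-. In Cdk6-/- tumour 5, Atoh1 was at 0.0442, Mycn at 2.65, Barhl1 at 5.97 and Gli1 at 21.98 CPM. In Cdk6+/+ these genes were at 75.9 to 94.3, 192 to 228, 111 to 178 and 73.1 to 128 CPM. The sum in tumour 5 came mostly from Zic1 and Ptch1, at 842 and 858 CPM. Those genes were at 1032 to 1185 and 663 to 814 CPM in Cdk6+/+. Cdk6-/- tumour 5 had almost no transcripts of dividing cells: the 6 markers summed to 27.9 CPM there, with Mki67 at 0.398 CPM, and to between 1640 and 2613 CPM in the other 8 libraries. The 8 markers of mature granule neurons summed to 8065 CPM in tumour 5 and 7730 CPM in tumour 1, against 457 to 1536 CPM elsewhere, and the 6 Purkinje cell markers to 8943 CPM in tumour 5, against 67.7 to 1462 CPM elsewhere. The Y-linked gene Ddx3y was at 57.6 to 145 CPM in Cdk6-/- tumours 2 to 5, at 0.160 CPM in tumour 1, and without a count in tumour 6 and in every Cdk6+/+ library. Xist, an X-linked gene, was at 1583 to 2087 CPM in Cdk6+/+ and at 131 and 1757 CPM in Cdk6-/- tumours 1 and 6. In Cdk6-/- tumours 2 to 5 it was at 0.354 to 0.958 CPM. The part of cell makeup and of sex in the differences below was not tested, and in whole tumours fewer cells of a type and less RNA per cell cannot be told apart.

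As a group, the factor genes were lower in the tumours labelled Cdk6-/-, by amounts that mostly stayed within the spread between tumours. Together they held 2.39 to 2.75% of all counts in the Cdk6+/+ libraries and 0.827 to 1.88% in the Cdk6-/- libraries, so the groups did not overlap. Much of this was Eef1a1, which alone held 0.821 to 1.12% against 0.0438 to 0.277%. Without it the shares were 1.57 to 1.66% and 0.784 to 1.604%, and the groups overlapped. Of the 60 tested genes, 47 (78.3%) had a negative log2 fold change (Cdk6-/- minus Cdk6+/+), where 40.1% of all 18356 tested genes did. The median was -0.32 over the factor genes and 0.16 over all genes.

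Only 3 factor genes passed edgeR's quasi-likelihood test at an adjusted p under 0.05, Eef1a1, Eif1 and Eif3m, and all 3 fell. That is 5% of the tested members, beside 2.43% of all tested genes that passed downward, and 5.19% that passed in either direction. In the upward direction 0 members passed, beside 2.76% of all genes. At an unadjusted p under 0.05 there were 2 upward and 15 downward, beside 12.3% and 7.01% of all genes. DESeq2 called the 3 genes with Eef1g, Eif2s3x, Eif3e, Eif3j1 and Eif4a1 downward (8) and Eif4g3 and Eif5b upward (2). Of all 18356 tested genes, DESeq2 called 832 downward and 1477 upward. Levels in every Cdk6-/- tumour lay below those in every Cdk6+/+ tumour for 17 members (28.3%), beside 7.98% of all genes, and above for 2 members (3.33%), Eif4g3 and Eif5b, beside 7.56%. The authors' deposited table of 761 genes from their own DESeq2 comparison lists 0 of the 63 members.

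The 3 calls did not hold when either of 2 Cdk6+/+ libraries was left out. Without Cdk6+/+ tumour 1 the adjusted p-values of edgeR's quasi-likelihood test were 0.0708 for Eef1a1, 0.105 for Eif1 and 0.102 for Eif3m, and without Cdk6+/+ tumour 3 they were 0.0739, 0.0749 and 0.106. With the level of Ddx3y in the model, also added after the data were seen, they were 0.210, 0.159 and 0.207, at log2 fold changes of -2.07, -1.04 and -1.16. Among the 5 libraries with Ddx3y under 1 CPM, which hold from that group only Cdk6-/- tumours 1 and 6, all 3 were again called, with adjusted p-values of 0.0308, 0.0445 and 0.0406. Those 5 libraries were not alike in sex-linked genes. Xist was at 131 CPM in Cdk6-/- tumour 1 and at 1583 CPM or more in the others. With Cdk6-/- tumours 1 and 5 left out, which was decided on seeing their marker levels, 12 members were called lower (20%, beside 6.14% of all genes) and 2 higher (beside 8.12%), and the 3 genes were among the 12.

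**Figure D1:**
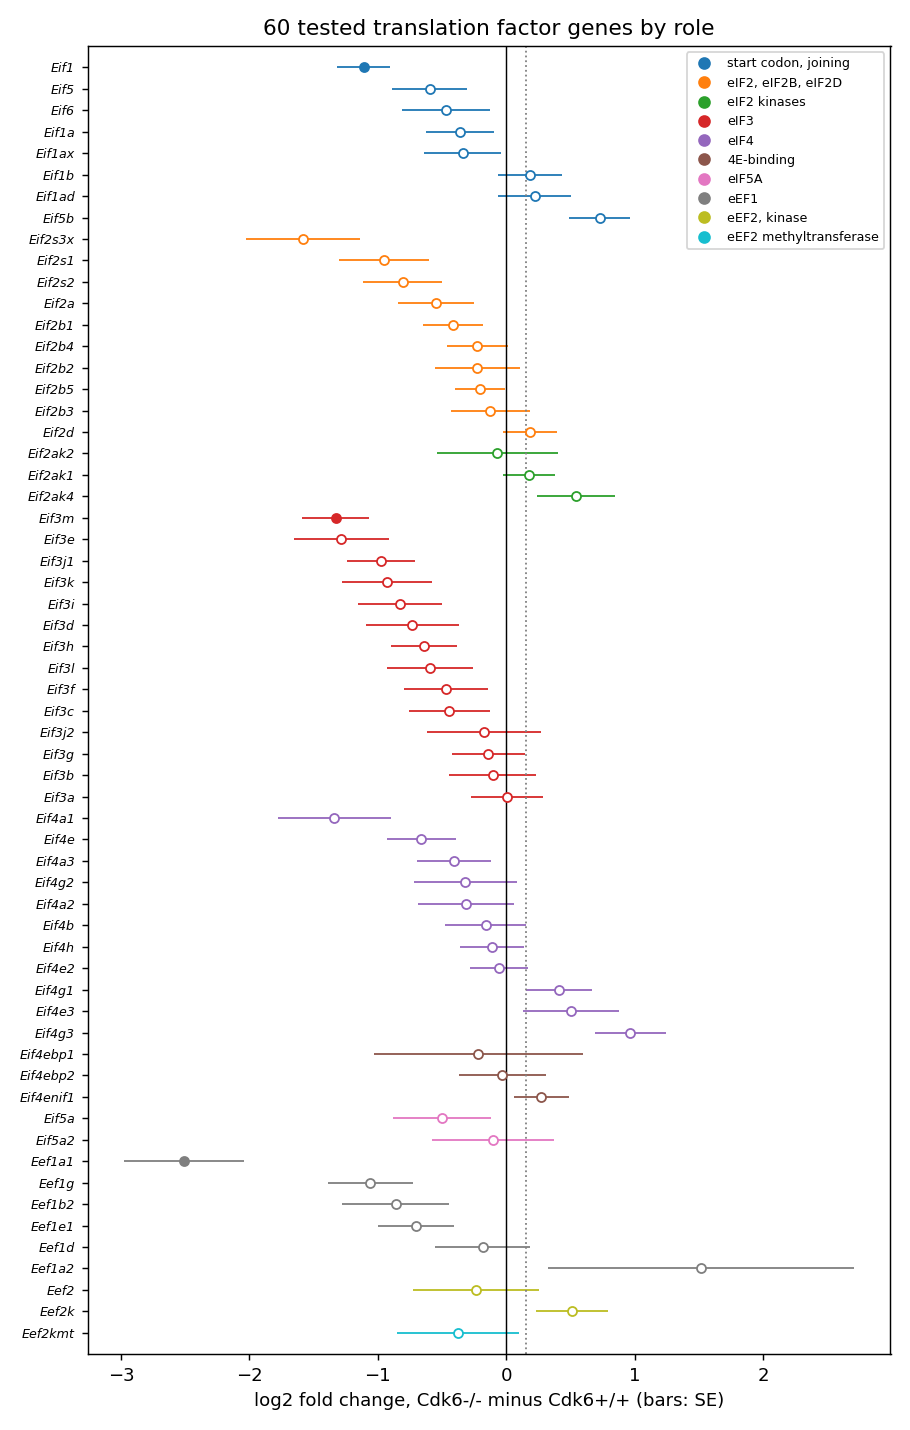
Log2 fold change of the 60 tested genes, Cdk6-/- minus Cdk6+/+, on the horizontal axis, with bars for the standard error, grouped and coloured by role; filled points have an adjusted p under 0.05, and the dotted line is the median of all tested genes, 0.16. Points run from -2.51 for Eef1a1 to 1.52 for Eef1a2, and 47 of 60 lie left of 0.

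Genes of start codon selection and subunit joining went in different directions. Eif1, the small factor that keeps the scanning ribosome from starting at wrong codons (chromosome 11, 100319885 to 100322096, GRCm38), was at 449, 336 and 368 CPM in Cdk6+/+ tumours 1 to 3. In the Cdk6-/- tumours it ran from 152 CPM in tumour 5 through a median of 179.9 to 204 CPM in tumour 1. All 6 sat in a narrow band well below the lowest Cdk6+/+ tumour. The log2 fold change was -1.11 (SE 0.21, adjusted p = 0.0137, edgeR's quasi-likelihood test), and with tumours 1 and 5 left out it was again -1.11 (SE 0.17, adjusted p = 0.0038).

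Eif1b, which encodes a close relative of eIF1, did not follow it. It was at 91.6, 71.5 and 83.9 CPM in Cdk6+/+ and at 71.3 to 135 CPM in Cdk6-/-, with a median of 87.8. The groups overlapped, and the highest value was in Cdk6-/- tumour 5 (log2 fold change 0.19, SE 0.25, adjusted p = 0.738). The coding sequences of Eif1 and Eif1b are 81.1% identical, and no stretch longer than 25 bases is the same in both, so a 50-base read from either coding sequence can be told apart. The first stretch of 50 aligned bases within an exon of both genes, from coding base 32, is shown with its 9 differences in capitals (GENCODE M21, chr11:100320666-100320715 and chr9:120494107-120494156, GRCm38, + strand for both).
Eif1: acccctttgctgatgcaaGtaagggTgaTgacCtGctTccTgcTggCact
Eif1b: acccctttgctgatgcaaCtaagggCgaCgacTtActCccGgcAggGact

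Eif5b encodes the GTPase that joins the ribosomal subunits (chromosome 1, 37998010 to 38055579). It was at 186, 163 and 167 CPM in Cdk6+/+ and between 223 CPM in tumour 5 and 372 CPM in tumour 1 in Cdk6-/-, with a median of 275. The groups did not overlap, in the direction opposite to Eif1. Its log2 fold change of 0.73 (SE 0.24) did not pass with all 9 tumours (adjusted p = 0.124, edgeR's quasi-likelihood test) and was called without Cdk6-/- tumours 1 and 5 (0.70, SE 0.17, adjusted p = 0.0262). Exons of Rev1 on the opposite strand overlap 16.8% of the exon bases of Eif5b, and no source used here says if strand was considered in counting.

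The other 5 genes of this role overlapped between groups and passed no test. Eif5, the protein that makes eIF2 hydrolyse its GTP, was at 541, 439 and 560.5 CPM in Cdk6+/+ and at 218 to 502 CPM in Cdk6-/-. Eif6, which keeps free large subunits apart from small ones, was at 43.9 to 58.3 CPM and 21.1 to 55.7 CPM. Eif1a and Eif1ax, which encode the scanning factor eIF1A, and Eif1ad, which contains a related domain, had log2 fold changes of -0.36, -0.34 and 0.22.

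**Figure D2:**
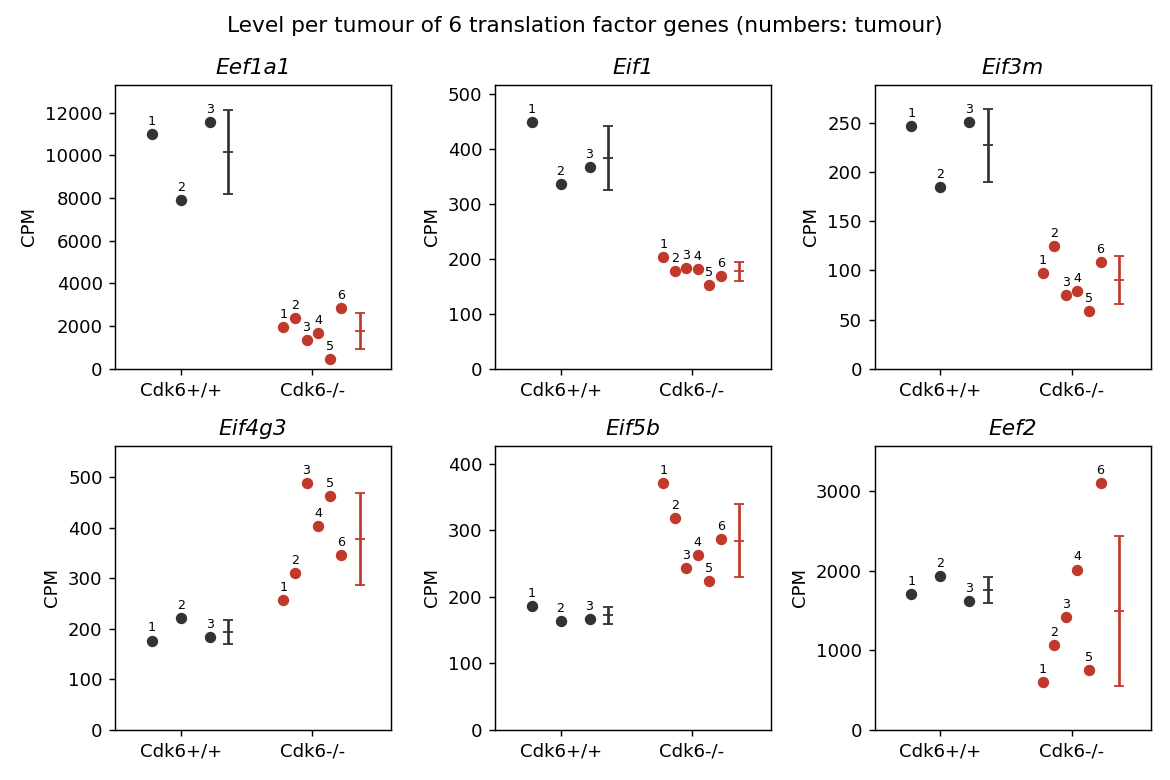
CPM in each tumour for 6 genes, with Cdk6+/+ in black and Cdk6-/- in red, numbers marking the tumour, and the bar at the right of each group giving the mean and SD (n = 3 and n = 6). Eef1a1, Eif1 and Eif3m lie lower in all 6 Cdk6-/- tumours, Eif4g3 and Eif5b lie higher, and Eef2 spreads from 604 to 3106 CPM within Cdk6-/-.

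None of the 10 genes of eIF2, eIF2B and eIF2D passed with all 9 tumours, and the lowest log2 fold changes among them were those of the 3 subunits of the eIF2 trimer. At an unadjusted p under 0.05 there were those 3, beside 7.01% of all genes that were lower. DESeq2 called 1, Eif2s3x, beside 832 lower of all 18356 tested genes. Every Cdk6-/- tumour lay below every Cdk6+/+ tumour for 4 of the 10 genes, beside 7.98% of all tested genes. Eif2s3x, which encodes the gamma subunit that binds GTP and the initiator tRNA (chromosome X, 94188707 to 94212862), was at 196, 166 and 221 CPM in Cdk6+/+. In Cdk6-/- it ran from 28.02 CPM in tumour 3 to 111 CPM in tumour 6, with a median of 57.2. The groups did not overlap (log2 fold change -1.58, SE 0.44, adjusted p = 0.0726, edgeR's quasi-likelihood test). Its highest Cdk6-/- values, 101 and 111 CPM, came from tumours 1 and 6, where Ddx3y was at or near 0, and tumours 2 to 5 were at 79.3 CPM or below. Eif2s3x is known to escape X inactivation in mice, and its Y-linked partner Eif2s3y was not among the members.

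Eif2s1, the alpha subunit that stress kinases phosphorylate, was at 202, 158 and 197 CPM against 42.4 to 139 CPM, and its log2 fold change was -0.95 (SE 0.35, adjusted p = 0.169). Eif2s2, the beta subunit, was at 245, 201 and 261 CPM against 75.7 to 193 CPM (-0.81, SE 0.31, adjusted p = 0.184). Neither gene overlapped between groups. Without Cdk6-/- tumours 1 and 5 all 3 trimer genes were called lower by edgeR's quasi-likelihood test, at adjusted p-values of 0.0344, 0.0391 and 0.0470 for Eif2s3x, Eif2s1 and Eif2s2. In that fit 6.14% of all tested genes were called lower. The 5 genes of eIF2B, the exchange factor that recharges eIF2 with GTP, had log2 fold changes from -0.41 (Eif2b1) to -0.12 (Eif2b3). Only Eif2b1 of these did not overlap, at 45.7 to 55.6 CPM against 25.1 to 45.3 CPM. Eif2a and Eif2d, which encode factors able to deliver initiator tRNA without eIF2, were at -0.54 and 0.19.

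Of the kinases that phosphorylate eIF2 alpha, 0 passed the test, 0 had an unadjusted p under 0.05 and DESeq2 called 0. Eif2ak4, which encodes the amino acid sensor GCN2, was at 21.2, 19.3 and 20.97 CPM in Cdk6+/+ and at 17.5 to 43.9 CPM in Cdk6-/- (log2 fold change 0.55, SE 0.30, adjusted p = 0.370, edgeR's quasi-likelihood test). Eif2ak1, the heme-regulated kinase, was the most abundant per exon length, at 88.2 to 98.0 CPM and 82.9 to 127 CPM. Eif2ak2, the kinase activated by double-stranded RNA, ran from 9.26 to 20.4 CPM and from 5.65 to 25.9 CPM.

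Among the 14 eIF3 genes, 13 had negative log2 fold changes and 6 did not overlap between groups, all of them with every Cdk6-/- tumour below, beside 40.1% of all tested genes that were negative and 7.98% that lay apart in that direction. eIF3 is the largest initiation factor, a scaffold that bridges the small subunit and the eIF4 complex. Eif3m, a subunit found in mammals but not in budding yeast (chromosome 2, 104999656 to 105017080), was at 247, 184 and 251 CPM in Cdk6+/+ and from 58.5 CPM in tumour 5 through a median of 88.4 to 125 CPM in tumour 2 in Cdk6-/-. Every Cdk6-/- tumour stood below the lowest Cdk6+/+ tumour. The fall was -1.33 (SE 0.26, adjusted p = 0.0184, edgeR's quasi-likelihood test).

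Eif3e, a further subunit that budding yeast lacks, was at 429.9, 305 and 432 CPM against 62.1 to 239 CPM, and its log2 fold change of -1.28 (SE 0.37) missed the threshold (adjusted p = 0.0785). Eif3j1, the loosely attached subunit near the decoding site, was at 55.2, 44.8 and 56.9 CPM against 16.1 to 37.4 CPM (-0.98, SE 0.27, adjusted p = 0.0659). Neither overlapped, and both were called lower without Cdk6-/- tumours 1 and 5 (adjusted p = 0.0186 for Eif3e and 0.0159 for Eif3j1, edgeR's quasi-likelihood test). Eif3k, Eif3i and Eif3h also did not overlap, with log2 fold changes of -0.93, -0.83 and -0.64. At the other end stood Eif3a, the largest subunit, at 421, 432 and 449 CPM against 312 to 583 CPM (0.01, SE 0.28), and Eif3b, Eif3g and Eif3j2 lay between -0.17 and -0.11. Eif3d, Eif3l, Eif3f and Eif3c overlapped between groups, at -0.73 to -0.44.

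The most abundant eIF3 gene by counts per kb of exon differed between the groups. Among the 12 subunits without the loosely attached eIF3j genes, Eif3e was the highest in each Cdk6+/+ library, at 198 to 280 CPM per kb, and Eif3h the highest in each Cdk6-/- library, at 92.2 to 187 CPM per kb. In Cdk6+/+ tumour 2 Eif3e and Eif3h were nearly equal. Their group means were 252 and 230 CPM per kb in Cdk6+/+, and 104 and 148 CPM per kb in Cdk6-/-. The order rests on exon lengths of 1541 and 1253 bases, and both genes differ from GENCODE M21 in start or end. No test was run on this order. The median of the 12 was at 85.0 to 94.1 CPM per kb in Cdk6+/+ and at 31.5 CPM per kb in Cdk6-/- tumour 5, with the other 5 Cdk6-/- tumours at 49.9 to 86.7.

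**Figure D3:**
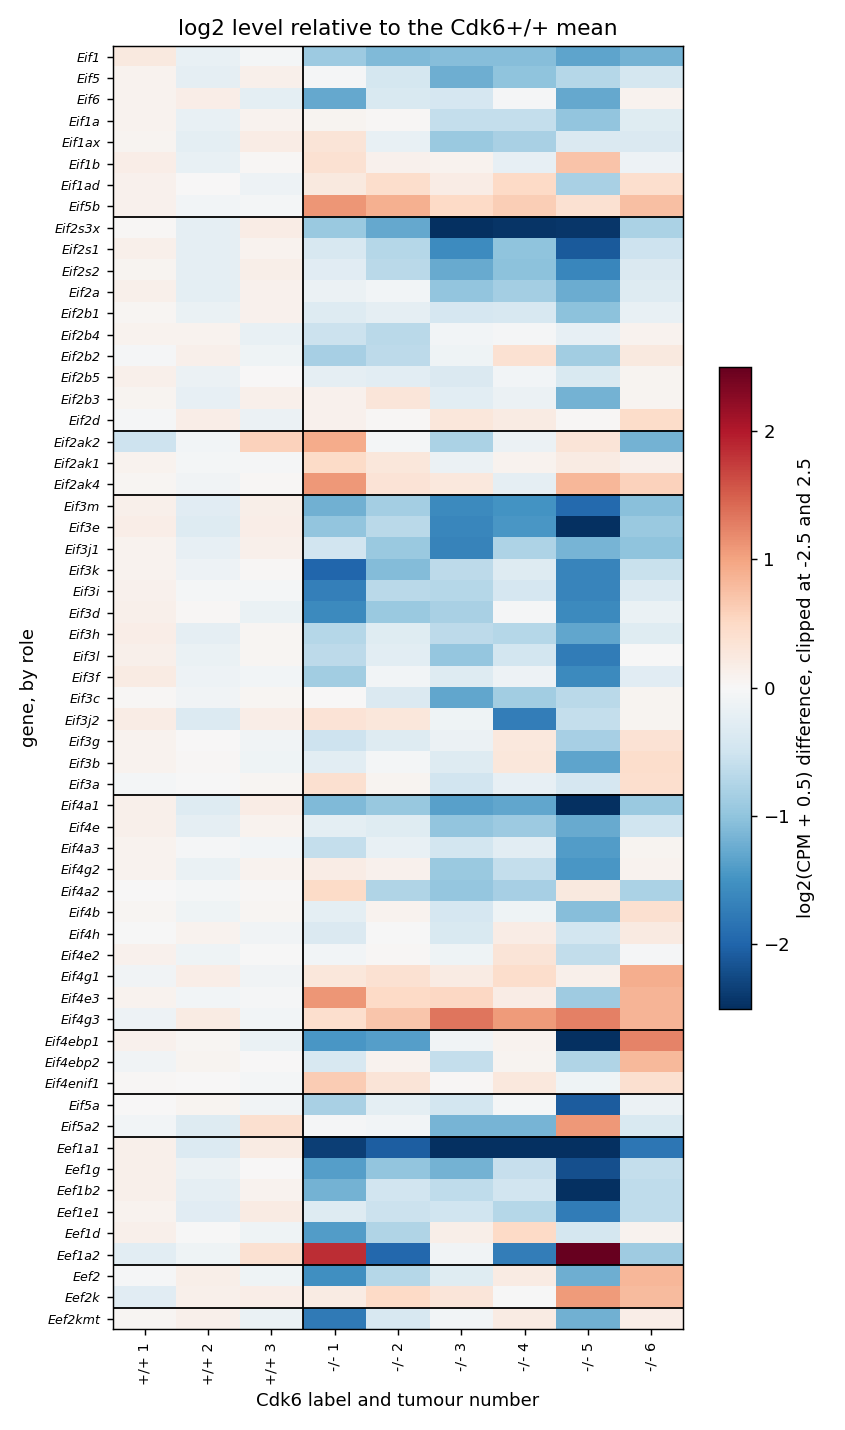
Log2(CPM + 0.5) of each tested gene (rows, by role) in each tumour (columns) relative to its Cdk6+/+ mean, blue for lower and red for higher, clipped at -2.5 and 2.5. Cdk6-/- tumour 5 is the bluest column, with a median deviation of -1.04, and tumour 6 the palest of that group, at -0.02.

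Of the 11 tested eIF4 genes 0 passed the test, at an unadjusted p under 0.05 there were 2 lower and 1 higher, and DESeq2 called 1 lower and 1 higher. Of all 18356 tested genes, 7.01% were lower and 12.3% higher at that unadjusted p, and DESeq2 called 832 lower and 1477 higher. The groups did not overlap for 3 eIF4 genes: every Cdk6-/- tumour lay above for Eif4g3 and below for Eif4a1 and Eif4e, beside 7.56% and 7.98% of all tested genes. Eif4g3 encodes a scaffold that ties the cap to eIF3 (chromosome 4, 137993022 to 138208508), and was at 177, 220.3 and 183 CPM in Cdk6+/+. In Cdk6-/- it ran from 256 CPM in tumour 1 through a median of 374 to 489 CPM in tumour 3. The groups did not overlap, and the log2 fold change of 0.97 (SE 0.28) missed the threshold (adjusted p = 0.0790, edgeR's quasi-likelihood test). It was called without Cdk6-/- tumours 1 and 5 (1.01, SE 0.21, adjusted p = 0.0133). The related scaffold Eif4g1 was at 351 to 423 CPM and 409.5 to 708 CPM, which overlapped, and Eif4g2, an abundant relative that does not bind eIF4E, was at 2722 to 3264 CPM and 1116 to 3503 CPM.

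Eif4a1, the main helicase that unwinds leaders, was at 1259, 926 and 1322 CPM in Cdk6+/+ and at 107 to 609 CPM in Cdk6-/-, with a median of 503. No Cdk6-/- tumour reached the lowest Cdk6+/+ value, yet the spread within Cdk6-/- was wide and the log2 fold change of -1.34 (SE 0.44) did not pass (adjusted p = 0.124, edgeR's quasi-likelihood test). Without tumours 1 and 5 it was called (-1.13, SE 0.21, adjusted p = 0.0078). Eif4a2, the paralog that predominates in nondividing cells such as neurons, was at 483 to 512 CPM in Cdk6+/+. It was at 256 to 295 CPM in Cdk6-/- tumours 2, 3, 4 and 6, and at 695 and 592 CPM in tumours 1 and 5. With all tumours its log2 fold change was -0.31 (SE 0.37, adjusted p = 0.701), and without those 2 it was called lower (-0.83, SE 0.16, adjusted p = 0.0089).

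Eif4e, the cap-binding protein, was at 245, 191 and 239 CPM against 93.8 to 188 CPM, without overlap (-0.66, SE 0.27, adjusted p = 0.209, edgeR's quasi-likelihood test). Its relatives Eif4e2 and Eif4e3, which encode cap-binding proteins of weaker or repressive action, had log2 fold changes of -0.05 and 0.50. Eif4a3, a helicase of the exon junction complex, and the helicase helpers Eif4b and Eif4h were at -0.41, -0.16 and -0.11. Eif4e1b, known from oocytes, had no count in Cdk6+/+ and 9 in Cdk6-/-, where 3 counts over the Cdk6+/+ group would be 0.0222 CPM. The eIF4E-binding proteins did not separate the groups: Eif4ebp2 was at 50.9 to 56.3 CPM and 31.8 to 94.9 CPM, Eif4enif1 at 88.1 to 93.2 CPM and 83.9 to 140.4 CPM, and Eif4ebp1 at 8.22 to 9.99 CPM and 0.575 to 22.5 CPM. Eif4ebp3 had 32 and 24 counts in the groups and was not tested.

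In the eIF5A pair, whose products help the ribosome through difficult peptide bonds, Eif5a was at 499.5, 521 and 461 CPM against 117 to 479 CPM (-0.50, SE 0.38, adjusted p = 0.524, edgeR's quasi-likelihood test). Eif5a2 was at 35.0 to 57.8 CPM against 19.3 to 93.3 CPM. Tumour 5 was the lowest of all 9 for Eif5a and the highest for Eif5a2.

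Eef1a1 showed the largest change of all members. It encodes eEF1A, the GTPase that delivers each aminoacyl-tRNA to the ribosome (chromosome 9, 78478449 to 78489151), and per kb of exon it was the most abundant member in both groups, at a mean of 4071 and 716 CPM per kb. Its level was 10996, 7896 and 11558 CPM in Cdk6+/+. In the Cdk6-/- tumours it was at 478 CPM in tumour 5, at a median of 1806, and at 2856 CPM in tumour 6. The highest Cdk6-/- tumour was thus far below the lowest Cdk6+/+ tumour. The log2 fold change was -2.51 (SE 0.47, adjusted p = 0.0141, edgeR's quasi-likelihood test), and without tumours 1 and 5 it was -2.29 (SE 0.29, adjusted p = 0.0017).

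Eef1a2, the isoform that takes over in mature neurons and muscle, varied widely within the Cdk6-/- group. It was at 49.4, 55.4 and 77.3 CPM in Cdk6+/+, at 14.997 to 56.0 CPM in Cdk6-/- tumours 2, 3, 4 and 6, at 217 CPM in tumour 1 and at 705 CPM in tumour 5. The high values were in the tumours with high granule neuron markers. The log2 fold change of 1.52 (SE 1.19, adjusted p = 0.535, edgeR's quasi-likelihood test) became -1.001 (SE 0.42, adjusted p = 0.135) without tumours 1 and 5. The coding sequences of the isoforms are 80.1% identical, with no identical run over 23 bases. Their opening 50 coding bases show how: the 9 differences, in capitals, all fall on the third base of a codon (GENCODE M21, chr9:78480605-78480654 and chr2:181155357-181155406, GRCm38, - strand for both).
Eef1a1: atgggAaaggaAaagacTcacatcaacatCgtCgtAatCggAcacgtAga
Eef1a2: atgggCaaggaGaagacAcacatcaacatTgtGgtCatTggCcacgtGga

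None of the 3 exchange factor subunits that reload eEF1A with GTP passed the test. Eef1g was at 481, 401 and 447 CPM against 96.5 to 296 CPM (-1.06, SE 0.33, adjusted p = 0.105, edgeR's quasi-likelihood test), and Eef1b2 at 634, 496 and 611 CPM against 86.2 to 414 CPM (-0.86, SE 0.42, adjusted p = 0.297). Neither overlapped, while Eef1d did, at 112 to 131 CPM against 45.5 to 171 CPM. Eef1e1, whose product also belongs to the multi-synthetase complex, was at 47.8 to 67.5 CPM against 17.2 to 46.7 CPM. Of these, Eef1g and Eef1e1 were called lower without tumours 1 and 5 (adjusted p = 0.0265 and 0.0493, edgeR's quasi-likelihood test), beside 6.14% of all tested genes in that fit.

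Eef2, the translocase that moves the ribosome by a codon, did not follow Eef1a1. It was at 1707, 1935 and 1623 CPM in Cdk6+/+ and ran from 604 CPM in tumour 1 to 3106 CPM in tumour 6 in Cdk6-/-. The Cdk6-/- tumours lay on both sides of Cdk6+/+ (-0.23, SE 0.49, adjusted p = 0.844, edgeR's quasi-likelihood test), and the sign turned without tumours 1 and 5 (0.12, SE 0.33). Eef2k, the kinase that inhibits eEF2, was at 34.3 to 47.3 CPM against 41.8 to 88.3 CPM, with the highest value in tumour 5. Eef2kmt, which methylates eEF2, was at 6.84 to 8.56 CPM against 1.93 to 9.11 CPM.

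Ratios of paralogs within a library, which do not depend on how libraries are scaled, were compared for 5 pairs. In 9 tumours the 84 possible splits give a smallest two-sided p of 0.0238, and no pair passed after adjustment over the 5. A pair alone at that smallest p has an adjusted p of 0.119. The test therefore could not call a pair that stood alone at that p, whatever its ratio. Pairs could pass only if several had p-values at or near the smallest. Per kb of exon, Eef1a2 was at 0.00537, 0.00839 and 0.00800 of Eef1a1 in Cdk6+/+. In Cdk6-/- the ratio was 0.00747 in tumour 2, 0.0495 in tumour 3, 0.0127 in tumour 4, 0.0135 in tumour 6, 0.133 in tumour 1 and 1.76 in tumour 5. Only in tumour 5 was Eef1a2 the more abundant isoform, and 5 of 6 Cdk6-/- tumours were above all Cdk6+/+ tumours. The log2 ratio was -7.13 ± 0.35 (SD, n = 3) against -4.33 ± 2.95 (SD, n = 6), a difference of 2.80 (exact permutation test, two-sided, p = 0.0714, adjusted 0.119).

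Eif4a2 to Eif4a1 behaved likewise in the same tumours. The ratio was 0.314 to 0.423 in Cdk6+/+, 0.386 to 0.486 in Cdk6-/- tumours 2, 3, 4 and 6, 1.05 in tumour 1 and 4.50 in tumour 5, and the log2 difference was 1.08 (exact permutation test, two-sided, p = 0.0714, adjusted 0.119). The helicase genes are 78.2% identical in their aligned coding bases, with no identical run over 20 bases. The first stretch of 50 aligned bases that lies within an exon of both genes shows the 11 differences there in capitals (GENCODE M21, chr11:69670698-69670747, - strand, and chr16:23108719-23108768, + strand, GRCm38).
Eif4a1: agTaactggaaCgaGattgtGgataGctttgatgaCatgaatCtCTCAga
Eif4a2: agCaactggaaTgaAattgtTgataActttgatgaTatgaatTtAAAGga

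Eif4e2 to Eif4e was the pair in which all 6 Cdk6-/- tumours lay above all Cdk6+/+ tumours. The ratio was 0.351 to 0.411 in Cdk6+/+ and 0.429 to 0.883 in Cdk6-/-, with the highest value in tumour 4, and the log2 difference was 0.62 (exact permutation test, two-sided, p = 0.0238, the smallest possible, adjusted 0.119). Eif5a2 to Eif5a was at 0.0318 to 0.0592 against 0.0192 to 0.377, with tumour 5 at the top (log2 difference 0.34, exact permutation p = 0.929, adjusted 0.976). Eif1a to Eif1ax was at 0.363 to 0.405 against 0.249 to 0.487 (log2 difference -0.01, exact permutation p = 0.976, adjusted 0.976). Both of these last pairs overlapped between groups in either direction.

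**Figure D4:**
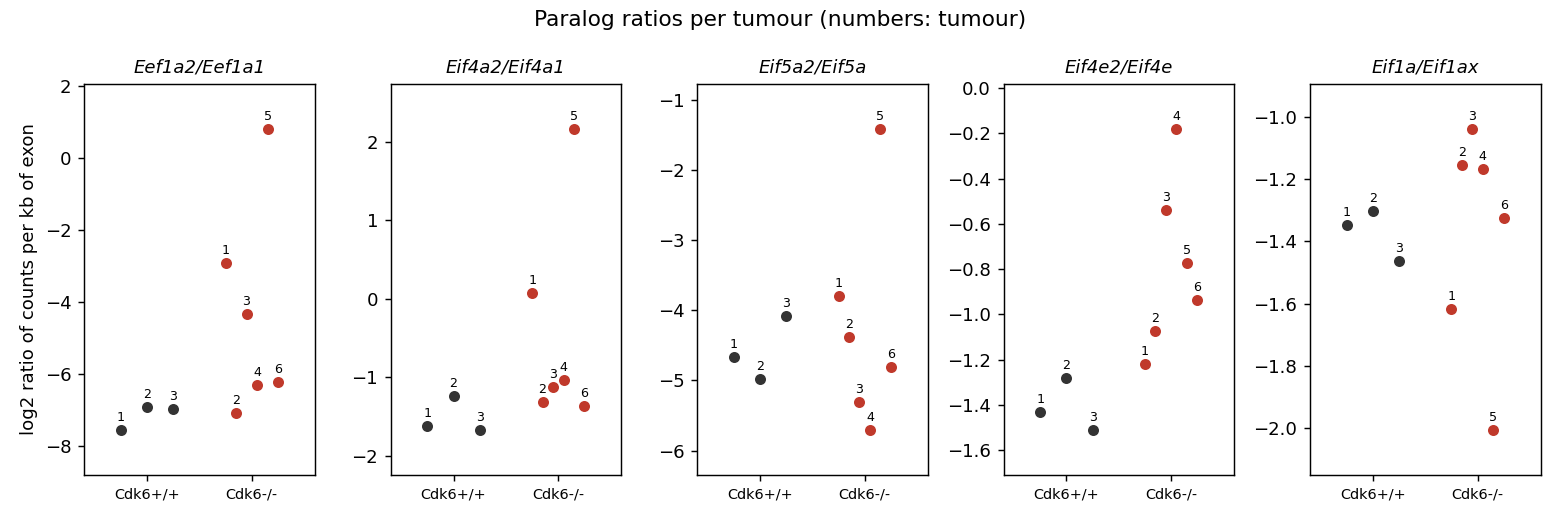
Log2 ratio of counts per kb of exon for 5 paralog pairs (panels, each with its own vertical scale) in each tumour, Cdk6+/+ in black and Cdk6-/- in red, numbers marking the tumour. Tumours 1 and 5 stand above the other Cdk6-/- tumours in the Eef1a2/Eef1a1 and Eif4a2/Eif4a1 panels, and all 6 Cdk6-/- points lie above Cdk6+/+ in the Eif4e2/Eif4e panel.

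Several members share sequence with other annotated genes, among them processed pseudogenes. Of the 60 tested genes, 13 had at least 10% of their 50-base sequences, the read length, in another annotated gene. Their median log2 fold change was -0.98, 12 of the 13 were negative, and all 3 called members were among them. The other 47 had a median of -0.22 and 35 of them were negative. Spearman's rho between shared percent and log2 fold change was -0.58 across the 60 genes, which are not independent and share the same 9 libraries. No source used here says how multiply aligned reads were counted, and the part of shared sequence in the differences was not tested.

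Eef1a1 shares 39.4% of its 50-base sequences with other genes, 18 of them pseudogenes. At Gm13456, a processed pseudogene that holds 24.7% of the 50-base sequences of Eef1a1, 1511, 738 and 1001 counts were recorded in Cdk6+/+ and 16 to 118 in Cdk6-/-. At Gm26384, an annotated miRNA gene with 0.458% of them, counts were 620, 207 and 252 in Cdk6+/+ and 0 in all 6 Cdk6-/- libraries. The 9 pseudogene rows in the table summed to a mean of 36.6 CPM in Cdk6+/+ and 9.03 CPM in Cdk6-/-, and adding them to Eef1a1 left its log2 fold change at -2.51 (adjusted p = 0.0141, edgeR's quasi-likelihood test).

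Eif1 shares 19.2% of its 50-base sequences and Eif3m 17.2%. The pseudogene rows summed to 2.91 and 4.91 CPM for Eif1 and to 8.60 and 6.33 CPM for Eif3m, in Cdk6+/+ and Cdk6-/-. With these added, the log2 fold changes were -1.08 for Eif1 (adjusted p = 0.0162) and -1.28 for Eif3m (adjusted p = 0.0235, edgeR's quasi-likelihood test). The windows below are the coding windows of 50 bases found in the most other annotated genes, 11 for Eif1, 1 for Eif3m and 7 for Eef1a1, and are shown because a read from them has no unique origin (GENCODE M21, chr11:100320970-100321019, + strand, chr2:105014804-105014853, - strand, and chr9:78479912-78479961, - strand, GRCm38).
Eif1: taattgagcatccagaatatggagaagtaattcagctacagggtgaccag
Eif3m: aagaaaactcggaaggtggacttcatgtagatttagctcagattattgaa
Eef1a1: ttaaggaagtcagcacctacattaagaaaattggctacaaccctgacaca

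Eif4g3, Eif5b, Eef1a2 and Eif1b, all with positive log2 fold changes, had 0% shared. Members with negative ones also had 0%, among them Eif3d at -0.73, Eef1e1 at -0.70 and Eif3l at -0.59. Eif3e, with a log2 fold change of -1.28, had 5.75%. Eif3j2, a copy of Eif3j1 with its exon bases in an unbroken run, had 91.8% and Eif3j1 had 36.9%, so counts of that pair may be split between them. The pseudogene rows Eif3s6-ps1 and Eif5al3-ps, which were no members, are in the authors' deposited table, with log2 fold changes of -5.05 and -3.93.

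**Figure D5:**
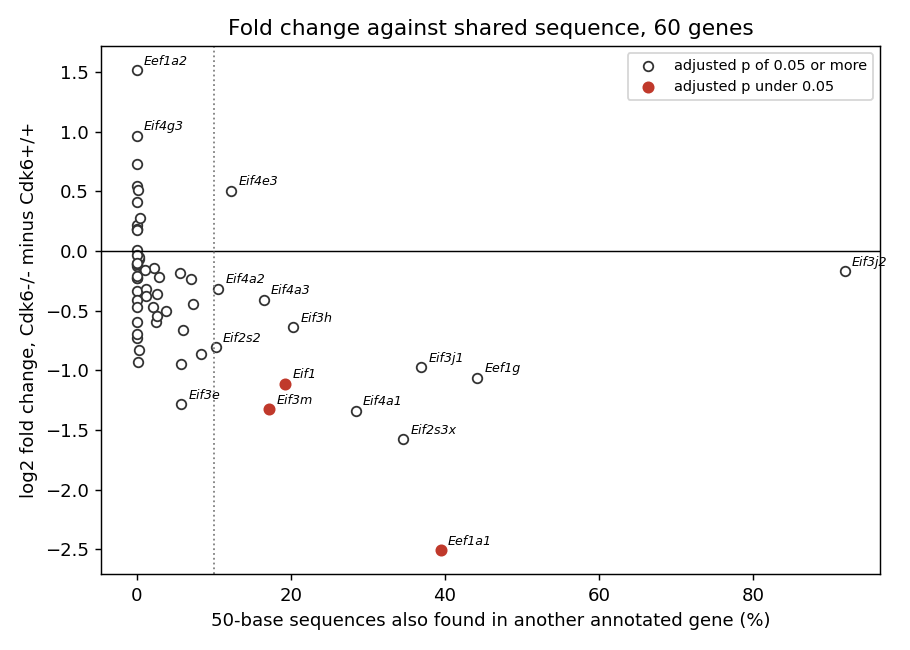
Log2 fold change of the 60 tested genes, Cdk6-/- minus Cdk6+/+, against the percent of their 50-base sequences that occur in another annotated gene; filled red points have an adjusted p under 0.05 and the dotted line marks 10%. To the right of the line 12 of 13 genes are below 0, and the left side runs from -1.28 to 1.52.

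Level and length also varied with the fold change, more weakly. Across the 60 genes Spearman's rho was -0.38 with the mean CPM per kb and 0.31 with exon length, and over all 18356 tested genes the rho with exon length was 0.12. These are descriptions across genes within the same libraries.

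The members also differed by tumour within the Cdk6-/- label. Of the 60 tested genes, 34 had their lowest value of all 9 libraries in Cdk6-/- tumour 5. Tumour 5 nevertheless held the highest value of 4 members: Eef1a2, Eif5a2, Eif1b and Eef2k. Cdk6-/- tumour 6 held the highest value of 11 members, and its median deviation from the Cdk6+/+ mean was the smallest of its group.

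Of 88 other genes of the pathway in 7 lists, 3 were called lower by edgeR's quasi-likelihood test, beside 2.43% of all tested genes, and 0 higher, beside 2.76%. At an unadjusted p under 0.05 there were 11 lower and 3 higher, and DESeq2 called 6 lower and 1 higher. Of all 18356 tested genes, 7.01% were lower and 12.3% higher at that unadjusted p, and DESeq2 called 832 lower and 1477 higher. Of 9 release and recycling factors, 14 partners of the poly(A) tail and cap, 9 partners of eIF2 phosphorylation and 6 genes of eIF5A hypusination, 0 passed edgeR's quasi-likelihood test in either direction, and their median log2 fold changes were -0.24, -0.29, 0.15 and -0.37. At an unadjusted p under 0.05 there were 3 lower and 1 higher of these 38 genes, and DESeq2 called 2 lower and 1 higher. Of 18 mTORC1 and S6 kinase genes 1 fell: Lamtor5, a subunit of the lysosomal Ragulator complex, was at 66.4, 47.4 and 64.0 CPM against 16.4 to 24.0 CPM (-1.59, SE 0.22, adjusted p = 0.0035). Of 22 cytosolic tRNA synthetase genes 1 fell, the scaffold Aimp2, at 28.7, 26.6 and 19.5 CPM against 5.97 to 15.7 CPM (-1.31, SE 0.32, adjusted p = 0.0419). Of 10 mitochondrial translation factors 1 fell, the mitochondrial elongation factor Tufm, at 46.6, 43.7 and 38.4 CPM against 11.3 to 25.9 CPM (-1.33, SE 0.30, adjusted p = 0.0308). None of the 3 overlapped between groups.

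The other genes named from these lists did not pass. Ppp1r15a, the stress-induced subunit that directs a phosphatase to eIF2 alpha, was at 9.38, 10.3 and 10.8 CPM in Cdk6+/+ and at 14.98 to 30.7 CPM in Cdk6-/- (0.99, SE 0.30, adjusted p = 0.0987, edgeR's quasi-likelihood test). Ppp1ca, a catalytic subunit of that phosphatase, was at 256, 249.7 and 256 CPM against 112 to 203 CPM (-0.77, SE 0.24, adjusted p = 0.0999). The groups did not overlap for either gene, and the directions were opposite.

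For eIF5A hypusination, Amd1, an enzyme of the polyamine route that feeds the hypusine, was at 89.98 to 119 CPM against 29.3 to 72.4 CPM (-1.13, SE 0.30, adjusted p = 0.0575, edgeR's quasi-likelihood test), and Odc1, which starts that route, was at 272 to 439 CPM against 29.1 to 261 CPM (-1.22, SE 0.49, adjusted p = 0.206). Neither overlapped. Tsc1, an inhibitor of mTORC1, was at 68.9 to 76.7 CPM against 86.9 to 146 CPM, also without overlap (0.61, SE 0.23, adjusted p = 0.173), and Mrrf, the mitochondrial ribosome recycling factor, at 29.4 to 39.6 CPM against 11.1 to 23.8 CPM (-0.93, SE 0.29, adjusted p = 0.103). The log2 fold changes of the synthetase scaffold gene Aimp1, of Larp4 and Pabpc4, whose products bind poly(A) or its binding protein, of the release factor gene Gspt2 and of Mcts2 were -0.53, -0.56, -0.65, 0.44 and -0.44, and all 5 overlapped between groups.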

How the data were processed

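RNA of 9 whole mouse medulloblastomas was extracted with Trizol, per the labels' protocols, and read as 50-base single-end reads, per the series' design text. Tools named in the submitters' processing notes are HISAT2, Trimmomatic, FastQC and DESeq2, with no version, on build GRCm38.p6. No source used here gives the counting tool, its strand setting, its treatment of multiply aligned reads or the annotation release. The authors deposited whole-number counts per gene, unnormalized. They also deposited a table of log2 fold changes with standard errors, p-values, adjusted p-values and a score, of which the score was not used.

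Groups came from the labels' description and genotype. Genes were filtered with filterByExpr (18356 kept, 29237 removed) and TMM-scaled. The test was the quasi-likelihood F test of edgeR 4.0.16 (R 4.3.3), robust, two-sided, with Benjamini-Hochberg adjustment over all tested genes at 0.05. CPM refer to TMM-scaled library totals, and standard errors come from the test statistic. Paralog ratios used counts per kb of exon with 0.5 added and exact permutation tests. Alternatives used DESeq2 1.42.0 and limma 3.58.1, other scalings and filters, libraries left out and a replicate block. Shared sequence is the percent of distinct 50-base sequences of a gene's GENCODE M21 transcripts found in another annotated gene, computed in Python 3.11.15. All 63 members were found in it. The edgeR fit alone was tested on simulated counts, which varied less between libraries than these data and held no outlying library. No pair of libraries within a group agreed within counting error (smallest chi-square per degree of freedom 31.2).

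Members, lists and tests were chosen with earlier results of these data known. Named genes are every member past the threshold, in each role the most abundant per kb and the 2 with the smallest p, the 5 paralog pairs, and of each pathway list the 2 with the smallest p; other members are named to account for all 63. The common biological coefficient of variation was 0.542, which limits what could be called, and limits for counts of 0 cover counting error only.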

Additional observations from a re-analysis of the deposited data

Results flagged for a closer look

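Of 34 values tested for a tumour far from the other 5 of the Cdk6-/- group (28 members, the paralog ratios and the median deviation), 3 stood apart, all from tumour 5. The rule was Dixon's, a gap over range above 0.625. It used CPM for the members, not log2 CPM, and log2 values for the ratios and the median deviation. For normally distributed values chance flags about 1 in 20 groups. Eef1a2 was at 705 CPM there, the highest of the 6, with 217 CPM next. Eif4a1 was at 107 CPM, the lowest, with 453 CPM next. Eif5a2 was at 93.3 CPM, the highest, with 42.7 CPM next. In the same tumour the markers of dividing cells were near 0 and those of mature granule neurons and Purkinje cells were high; the part of these in the values was not tested.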

How the results depend on the processing

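The 3 genes called lower with all 9 tumours, Eef1a1, Eif1 and Eif3m, kept their sign under all 22 alternatives, with log2 fold changes of -2.70 to -2.07, -1.21 to -0.998 and -1.48 to -1.16, and were called under 19, 18 and 18 of them. Calls were lost without Cdk6+/+ tumour 1 or 3, with the level of Ddx3y in the model and, for Eif1 and Eif3m, with the replicate block; the cause was not tested. The median over the members stayed between -0.43 (limma-voom) and -0.12 (Ddx3y in the model). The median of all genes was 0.16 in edgeR's fit and 0.00 in limma-voom's, both TMM-scaled. In edgeR it was 0.15 with DESeq2's size factors and 0.17 with library totals only. Every Cdk6+/+ library was deeper than every Cdk6-/- library, so depth and label cannot be told apart.

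Of all genes, DESeq2 called 2309 (1477 higher, 832 lower), a filter of at least 1 CPM in 3 libraries 563 (244 higher, 319 lower), the fit without Cdk6-/- tumours 1 and 5 2643 (1505 higher, 1138 lower) and the fit with Ddx3y 93, beside 953; leaving out each tumour gave 207 to 1506, the lowest 3 without a Cdk6+/+ tumour. Members called lower numbered 8 with DESeq2, 5 with limma-voom, 0 to 6 leaving out each tumour, 12 without tumours 1 and 5 and 0 with Ddx3y. Members called higher numbered 2 with DESeq2, 0 to 1 leaving out each tumour, 2 without tumours 1 and 5 and 1 among libraries with Ddx3y under 1 CPM. Other translation genes called lower, 3 with all tumours, numbered 6 with DESeq2, 1 to 4 leaving out each tumour, 8 without tumours 1 and 5, 1 with Ddx3y and 1 among libraries with Ddx3y under 1 CPM. Those called higher numbered 1 with DESeq2, without tumours 1 and 5 and among libraries with Ddx3y under 1 CPM, in place of 0.

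Both groups have tumours numbered 1 to 3. Deviations of same-numbered tumours from their group means had correlations of 0.05, -0.18 and -0.25. Over the 3 Cdk6+/+ tumours these deviations sum to 0 for each gene, so the check cannot decide whether the numbers pair tumours. With the replicate block in those 6 tumours 1 member, Eef1a1, was called lower, and without the block 5 were. Under the block the log2 fold change of Eef1a2 was -0.11 and the log2 difference of Eif1a to Eif1ax was 0.10.

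Some other log2 fold changes, all without a call, turned sign. Without tumours 1 and 5, Eef1a2 was at -1.001, Eef2 at 0.12, Eif4e2 at 0.064, Eif4ebp1 at 0.25 and Eif4ebp2 at 0.18. With Ddx3y, Eef2 was at 0.16, Eif4ebp1 at 0.64, Eif4ebp2 at 0.35 and Eif4g2 at 0.12, and among libraries with Ddx3y under 1 CPM at 0.039, 0.42, 0.29 and 0.083. Leaving out 1 tumour at a time, Eif5a2 ranged from -0.51 to 0.11, Eif4ebp2 from -0.29 to 0.083, Eif4ebp1 from -0.87 to 0.032 and Eif4e2 from -0.14 to 0.042. The paralog difference of Eif5a2 to Eif5a ranged from -0.22 to 0.63 and was -0.48 without tumours 1 and 5, and that of Eif1a to Eif1ax ranged from -0.083 to 0.11 and was 0.20. No alternative brought a paralog ratio under an adjusted 0.05. Without tumours 1 and 5 and with the replicate block none could, as the smallest possible p was 0.0571 and 0.25. Leaving out a Cdk6+/+ tumour also gives too few splits for that.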

Other observations

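Marker lists of other cell types gave these levels beside the members. Beside 2.43% of all tested genes called lower, 2 of 6 microglia and macrophage markers fell (3 by DESeq2), P2ry12 (25.5 to 39.9 CPM in Cdk6+/+, 8.34 to 16.1 CPM in Cdk6-/-, adjusted p = 0.0096, edgeR's quasi-likelihood test) and Csf1r (67.7 to 81.3 and 22.9 to 41.9 CPM, adjusted p = 0.0125), and the list summed to 273 to 303 CPM against 76.0 to 204 CPM. Of 5 red cell genes 3 fell (4 by DESeq2), and their sum was 65.9 to 111 CPM against 0.535 to 8.005 CPM. The 6 astrocyte and Bergmann glia markers summed to 2729 to 2806 CPM against 1372 to 5193 CPM, the 6 oligodendrocyte markers to 1229 to 3105 CPM against 222 to 3446 CPM, and the 5 endothelial markers to 42.6 to 67.7 CPM against 30.2 to 104 CPM; 0 of these 17 were called by edgeR's quasi-likelihood test, and at an unadjusted p under 0.05 there were 2, Aqp4 and Mog, both lower; DESeq2 called 0. Of all 18356 tested genes, 7.01% were lower at an unadjusted p under 0.05, and DESeq2 called 832 lower. Whether these marker shifts bear on the translation factor genes was not tested.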
